A study of Mus musculus with 27 samples.

Results

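Aberrant induced pluripotent stem (iPS) clones lacking the histone demethylase UTX were set against embryonic stem cells (ESC) lacking the same enzyme, for H3K4me3 and for H3K27me3. The samples were chosen by their labels: 2 clones and 1 Utx-KO ESC line for each of the 2 marks, which made 6 of the 27 samples of the series and 6 of its 19 peak lists. The other 13 lists came from wild-type (WT) and Utx-KO mouse embryonic fibroblasts (MEF) with and without doxycycline (dox) and from WT ESC, and served here as points of comparison. The remaining 8 samples were whole-cell extracts, the background control of chromatin immunoprecipitation and sequencing (ChIP-seq), and were not analysed here.

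The iPS cells were of genotype Utx-/Y and strain V19-OSKM, and were labelled as improperly reprogrammed cells, clone #1 and clone #2. The Utx-KO ESC were also Utx-/Y, but of strain V6.5. Both are labelled as having had no dox induction. All 3 therefore lacked Utx, so the comparison holds the genotype constant and asks how the chromatin of the clones differed from that of a pluripotent line with the same deletion. Strain and route of origin (reprogramming or embryo) changed together and cannot be told apart. The Utx deletion itself was taken from the labels, since no gene could be placed on the mm9 coordinates of the files.

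H3K4me3, trimethylation of lysine 4 on histone H3, sits at the start sites of active and poised genes. H3K27me3 is written by Polycomb repressive complex 2 and marks silent developmental genes, and UTX (Kdm6a) is an enzyme that removes it. In ESC many promoters of developmental regulators carry both marks, a state called bivalent. Reprogramming of fibroblasts by Oct4, Sox2, Klf4 and c-Myc (OSKM, here under dox control) has to silence fibroblast genes and switch pluripotency genes back on.

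The deposited lists give each peak a position and a score of the peak caller, which behaves as -10 times the base 10 logarithm of a p-value. Each score is the authors' own and depends on sequencing depth, which is unknown here. It was mainly used to rank or filter peaks within a list, and the range of scores is given per list as a description only. Scores of different lists were set side by side in the common cutoff of 100 and in ranking regions that both clones carried, so these 2 uses depend on depth. The H3K4me3 lists were of similar length. Clone 1 had 23388 peaks covering 34.9 Mb, clone 2 had 28232 covering 55.5 Mb, and Utx-KO ESC had 20133 covering 43.3 Mb. The H3K27me3 lists were not. Clone 1 had 135 peaks covering 0.0812 Mb, clone 2 had 737 covering 0.735 Mb, and Utx-KO ESC had 36231 covering 79.8 Mb. The Utx-KO ESC list was itself the longest H3K27me3 list of the series, the other 5 non-iPS lists holding between 938 peaks (WT MEF with dox) and 5708 (Utx-KO MEF), with 5679 in WT ESC.

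**Figure D1:**
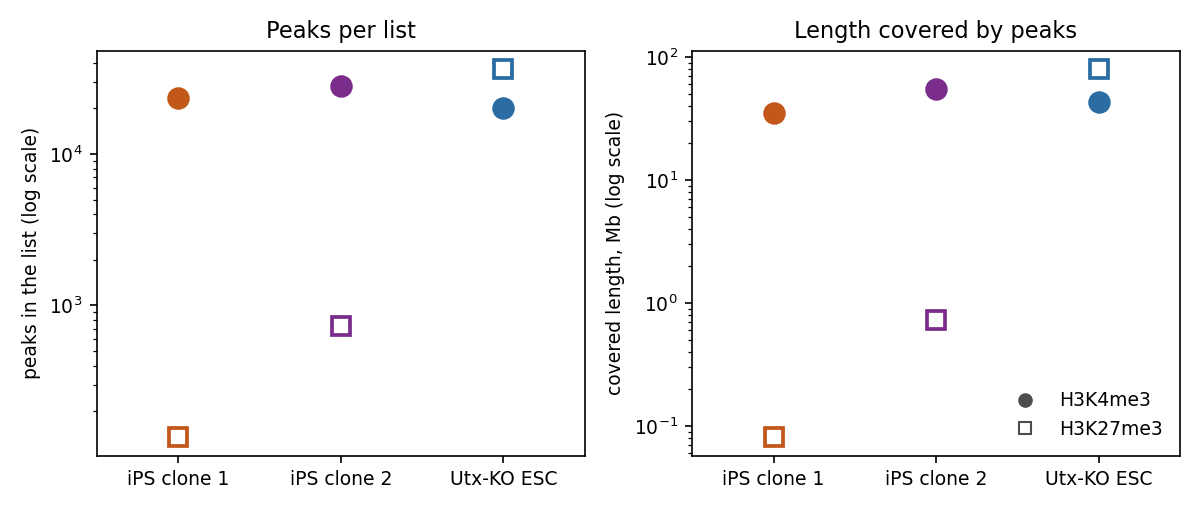
Number of peaks (left) and length covered by peaks in Mb (right), both on log scales, for iPS clone 1, iPS clone 2 and Utx-KO ESC; filled circles are H3K4me3 and open squares H3K27me3, 1 list each. The 3 H3K4me3 lists lie within 20133 to 28232 peaks, whereas the H3K27me3 lists hold 135, 737 and 36231.

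H3K27me3 was the mark in which the clones and Utx-KO ESC differed most. Nearly every region marked in Utx-KO ESC had no called peak in either clone. Of 36994 H3K27me3 regions (overlapping peaks of the 3 lists merged), 36123 (97.6%) were carried by Utx-KO ESC and by neither clone, 0 by both clones without Utx-KO ESC (0%), and 1 by all 3. Clone 1 had 109 regions of its own (0.3% of the regions of that pair of lists), Utx-KO ESC had 36204 (99.6%), and 26 were shared. Clone 2 had 659 of its own (1.79%), Utx-KO ESC had 36149 (98%), and 78 were shared.

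The log2 ratio of regions only in the clone to regions only in Utx-KO ESC, with 1 added to both counts, was -8.36 (95% exact binomial interval -8.66 to -8.10) for clone 1 and -5.78 (-5.89 to -5.67) for clone 2. Its mean was -7.07 ± 1.83 (SD, n = 2). Both clones lay on the same side, but with 135 and 737 clone peaks against 36231 this sign follows from list length whatever the overlap. The high share of regions in Utx-KO ESC alone follows from it too, so neither value measures where the lists agree. With 2 clones and 1 Utx-KO ESC library per mark no test between the groups was possible here, and the intervals hold only the error of counting regions. Of the Utx-KO ESC H3K27me3 peaks, 0.0745% met a peak of clone 1 and 0.226% one of clone 2.

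The range of scores is given as a description, since it moves with depth. The highest score was 93.18 in clone 1, 1615 in clone 2 and 3203.12 in Utx-KO ESC. The share of peaks scoring at least 100 was 0% in clone 1, 95.7% in clone 2 and 50.2% in Utx-KO ESC. Less of the mark in the clones and a weaker precipitation cannot be told apart from these lists.

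By score, the first 10 H3K27me3 regions found in Utx-KO ESC and without a clone peak were broad domains of 7248 to 15797 bp, each with a score of 3100 or more. The highest, chr5:75539132-75551706, scored 3203.12 and spanned 12575 bp, and the nearest H3K27me3 peak of either clone was 2286896 bp away. Next were chr13:48758415-48765662 (3136.47) and chr2:74581375-74594203 (3131.73). All 10 also had an H3K27me3 peak in WT ESC, so they were not domains of the Utx-KO line alone. All 10 carried H3K4me3 in both clones, and 8 of the 10 carried it in Utx-KO ESC. Over all 36231 Utx-KO ESC H3K27me3 peaks, 18.1% carried H3K4me3 in clone 1, 23.8% in clone 2 and 15.6% in Utx-KO ESC. Among those of at least 10000 bp the shares were 79.5%, 84.4% and 62.8%. The lack of clone H3K27me3 at these 10 follows from how they were chosen. A domain as strong, chr18:80902193-80915454 (13262 bp, 3100 in Utx-KO ESC), did meet an H3K27me3 peak of clone 2, with a score of 277.63.

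The few H3K27me3 peaks that the clones had were mostly their own. No peak of clone 1 overlapped a peak of clone 2. Of the 135 peaks of clone 1, 26 (19.3%, Wilson 95% interval 13.5 to 26.7) met an Utx-KO ESC peak, as did 78 of the 737 of clone 2 (10.6%, 8.56 to 13.0). Few lay on the clone's own H3K4me3, 10 of 135 in clone 1 (7.41%) and 29 of 737 in clone 2 (3.93%). The region of clone 1 and Utx-KO ESC with the highest clone score was chr11:77762577-77777876, a domain of 15300 bp scoring 770.45 in Utx-KO ESC, within which clone 1 had a peak of at most 799 bp scoring 75.11. For clone 2 it was chr5:140011038-140031359, a domain of 20322 bp scoring 936.73 in Utx-KO ESC, within which clone 2 had a peak of at most 906 bp scoring 351.22.

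The highest H3K27me3 peak of clone 2, chr9:35112492-35113418, scored 1615, and chr2:98506086-98508468 (907.99) and chr9:3021771-3023880 (412.32) were also among its top 5. These 3 places were not particular to clone 2, since Utx-KO MEF and WT MEF also had H3K27me3 peaks there. They carried H3K4me3 peaks in clone 1, Utx-KO ESC, Utx-KO MEF and WT MEF, and UTX peaks in WT ESC and WT MEF. Peaks of all 3 antibodies therefore fell there. The highest peak of clone 1, chr5:136622945-136623622, scored 93.18 and met no peak of any other list.

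The clone 2 H3K27me3 peaks were unevenly spread over the chromosomes. Chromosome 6 held 121 (16.4%, 13.9 to 19.3), chromosome 8 held 124 (16.8%, 14.3 to 19.7) and chromosome 11 held 69 (9.36%, 7.46 to 11.7). Together these 3 chromosomes, picked after their values were seen, held 42.6% (39.1 to 46.2) of clone 2 peaks and 24.4% (18.0 to 32.3) of clone 1 peaks. They held 19.3% of the Utx-KO ESC H3K27me3 peaks, a share within the clone 1 interval, and 18.9% of the H3K4me3 peaks of clone 2. Chromosome 11 by itself held 8.65% of the Utx-KO ESC H3K27me3 peaks, a share within its clone 2 interval. The cause of the uneven spread was not tested.

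**Figure D2:**
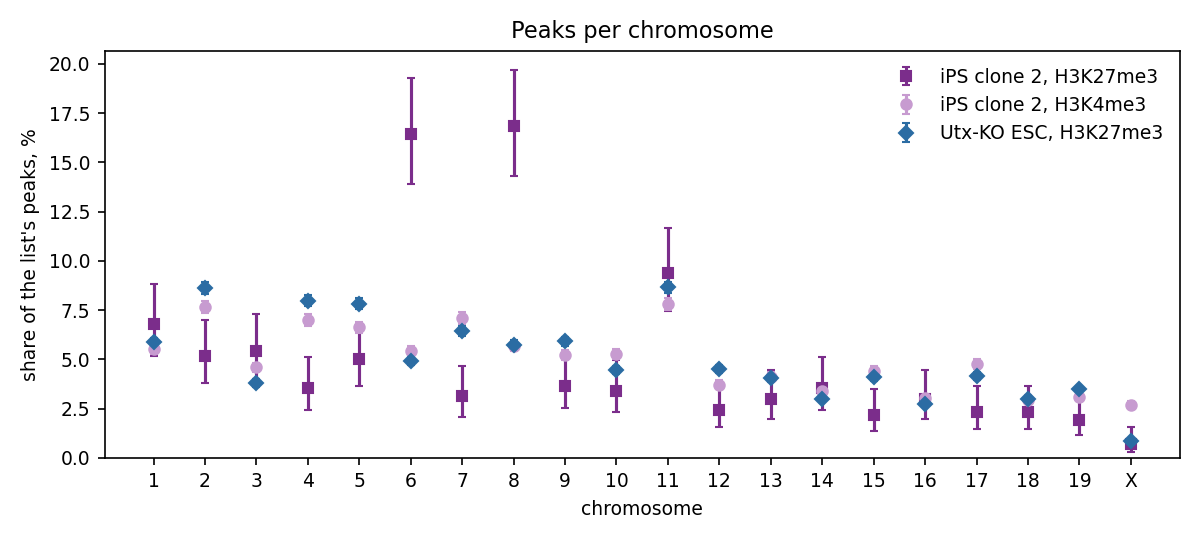
Share of a list's peaks in percent (vertical axis) on each chromosome (horizontal axis) for the clone 2 H3K27me3 list (dark squares), the clone 2 H3K4me3 list (light circles) and the Utx-KO ESC H3K27me3 list (diamonds), with Wilson 95% intervals. Clone 2 H3K27me3 stands at 16.4% and 16.8% on chromosomes 6 and 8, where Utx-KO ESC H3K27me3 stands at 4.93% and 5.74%.

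H3K4me3 was largely common to the clones and Utx-KO ESC, and the larger set of differences lay on the side of the clones. Of 29832 H3K4me3 regions, 16286 (54.6%) were carried by all 3 lists. Another 2980 (9.99%) were carried by both clones and not by Utx-KO ESC, and are called both-clone regions below. On the other side, 1336 (4.48%) were carried by Utx-KO ESC and by neither clone, and are called ESC-alone regions. Clone 2 alone held 6673 and clone 1 alone 747, while 1705 were shared by clone 2 and Utx-KO ESC and 105 by clone 1 and Utx-KO ESC.

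Clone by clone, clone 1 had 4231 regions of its own (17.5%), Utx-KO ESC had 3211 (13.3%), and 16680 were shared. Clone 2 had 9678 of its own (33.2%), Utx-KO ESC had 1444 (4.96%), and 18009 were shared. The log2 ratio was 0.40 (0.33 to 0.46) for clone 1 and 2.74 (2.66 to 2.83) for clone 2, a mean of 1.57 ± 1.66 (SD, n = 2), so the spread between clones was as large as the mean. The excess on the side of the clones depended on how the lists were cut. At a score of at least 100 in every list the mean ratio was 2.45. Equal list length kept Utx-KO ESC peaks down to a score of 50.02, but cut clone 1 at 151.54 and clone 2 at 135.86. With the 20133 highest-scoring peaks taken from each list, the mean ratio turned to -0.27, both-clone regions numbered 1529 and ESC-alone regions 2582. What follows was therefore read from what the regions carried, and less from how many there were.

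**Figure D3:**
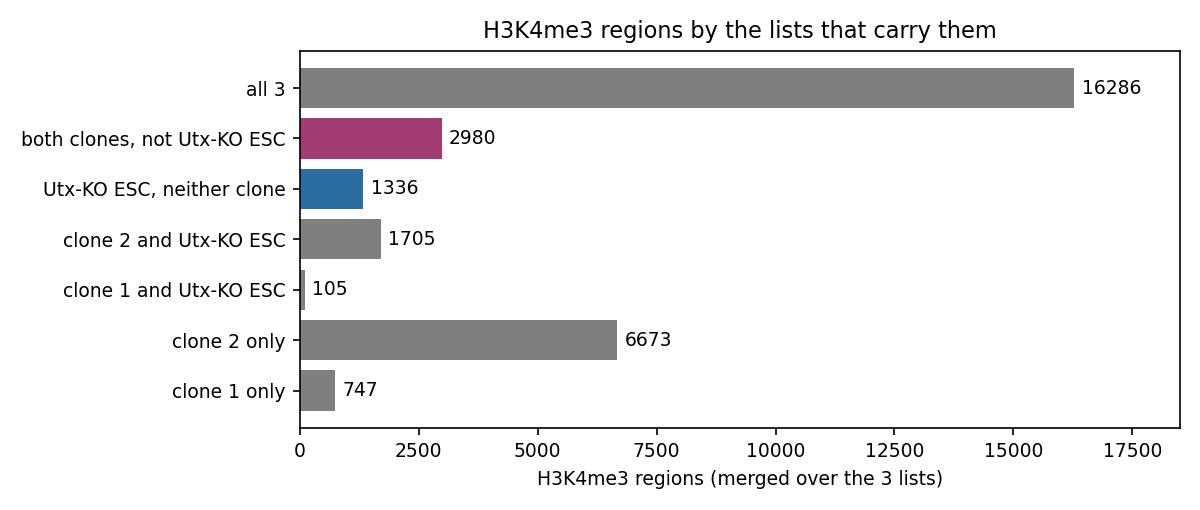
Number of H3K4me3 regions (horizontal axis, merged over the 3 lists) by the lists that carry them (vertical axis). The 16286 regions of all 3 lists form the longest bar, with 2980 regions of both clones without Utx-KO ESC and 1336 of Utx-KO ESC without either clone.

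Both-clone regions overlapped H3K27me3 of Utx-KO ESC more often than the other H3K4me3 regions did. Of the 2980, 1463 (49.1%, 47.3 to 50.9) overlapped an Utx-KO ESC H3K27me3 peak, against 4710 of the 16286 common regions (28.9%, 28.2 to 29.6) and 81 of the 1336 ESC-alone regions (6.06%, 4.90 to 7.47). Over all 29832 regions the share was 27.9%. The difference between both-clone and common regions was 20.2 percentage points (18.2 to 22.1), and that between both-clone and ESC-alone regions 43.0 points (40.8 to 45.2). Clone H3K27me3 was called at 1 of the 2980 both-clone regions in clone 1 (0.0336%) and at 4 in clone 2 (0.134%), and at 10 (0.0614%) and 23 (0.141%) of the 16286 common regions, so the low counts were not a trait of the both-clone regions.

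The same order was found at equal list length and by a rule that ignores width. At equal length the shares were 61.7% of both-clone, 29.4% of common and 8.60% of ESC-alone regions. By the centre of each region alone they were 40.8%, 19.6% and 4.87%. Common regions were the widest, with a median of 2547 bp, against 1288 bp for both-clone and 972.5 bp for ESC-alone regions. The size depended on requiring both clones. When the regions of a single clone without an Utx-KO ESC peak were taken, the share was 41.9% in clone 1 and 32.5% in clone 2, and the excess over regions shared with Utx-KO ESC was 13.8 and 4.90 points.

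The both-clone regions had lower scores than the common ones, and the ESC-alone regions were weak. The median score of both-clone regions was 185.16 in clone 1 and 193.905 in clone 2, against 1279.57 and 2195.78 for the common regions in the same lists. The ESC-alone regions had a median of 78.615 in Utx-KO ESC, where common regions had 862.06. The median both-clone region lay 14581 bp from the nearest Utx-KO ESC H3K4me3 peak, and 14.04% lay within 2500 bp of one. Of the ESC-alone regions, 17.4% lay within 2500 bp of a clone 1 peak and 24.6% of a clone 2 peak.

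The remaining H3K4me3 lists show in which other cells these regions were marked. Of the both-clone regions, 801 (26.9%, 25.3 to 28.5) had H3K4me3 in WT ESC, so a part of them were regions of normal ESC that the Utx-KO ESC list lacked. In fibroblasts, 926 (31.1%) were marked in Utx-KO MEF with dox and 511 (17.1%) in those without. In WT MEF the counts were 1357 (45.5%) with dox and 469 (15.7%) without. Together 1458 (48.9%, 47.1 to 50.7) met at least 1 of the 4 fibroblast lists. A further 1203 (40.4%) were marked in none of the 5 other lists.

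H3K27me3 of Utx-KO ESC was most frequent at the both-clone regions that fibroblasts shared. It was found at 604 of the 976 regions marked in fibroblasts and not in WT ESC (61.9%, 58.8 to 64.9). It was found at 76 of the 319 marked in WT ESC and in no fibroblast list (23.8%, 19.5 to 28.8). Among the 1203 marked in none of these lists it was found at 512 (42.6%, 39.8 to 45.4). So the both-clone regions marked in any fibroblast list were, in the majority (60.0%), under H3K27me3 in Utx-KO ESC. Of the common regions marked in any fibroblast list, 29.5% were. Common regions with the same pattern in the other lists had similar shares in 3 of these 4 divisions. They stood at 64.4% (60.4 to 68.3) where fibroblasts and not WT ESC were marked, at 19.8% (17.8 to 21.9) where WT ESC and no fibroblast list was, and at 41.9% (37.4 to 46.4) where none was. The exception was the division marked in fibroblasts and in WT ESC, with 56.2% (51.8 to 60.6) of the 482 both-clone regions and 28.0% (27.3 to 28.8) of the 13766 common ones. The excess of 20.2 points therefore moved with where else the regions were marked, since 32.8% of both-clone regions and 3.49% of common regions were marked in fibroblasts and not in WT ESC.

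ESC-alone regions had another profile. Of the 1336, 500 (37.4%, 34.9 to 40.1) had H3K4me3 in WT ESC, 115 (8.61%) in any fibroblast list, and 765 (57.3%) in none of the 5 other lists. UTX, mapped in WT cells, was found at 7.49% of ESC-alone regions (6.19 to 9.02) in WT ESC, against 2.82% of both-clone regions (2.28 to 3.48) and 5.05% of common ones (4.72 to 5.39). Counted by the centre of the region the 3 shares were 1.65%, 1.31% and 1.09%, so most of these UTX peaks lay off the centre.

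**Figure D4:**
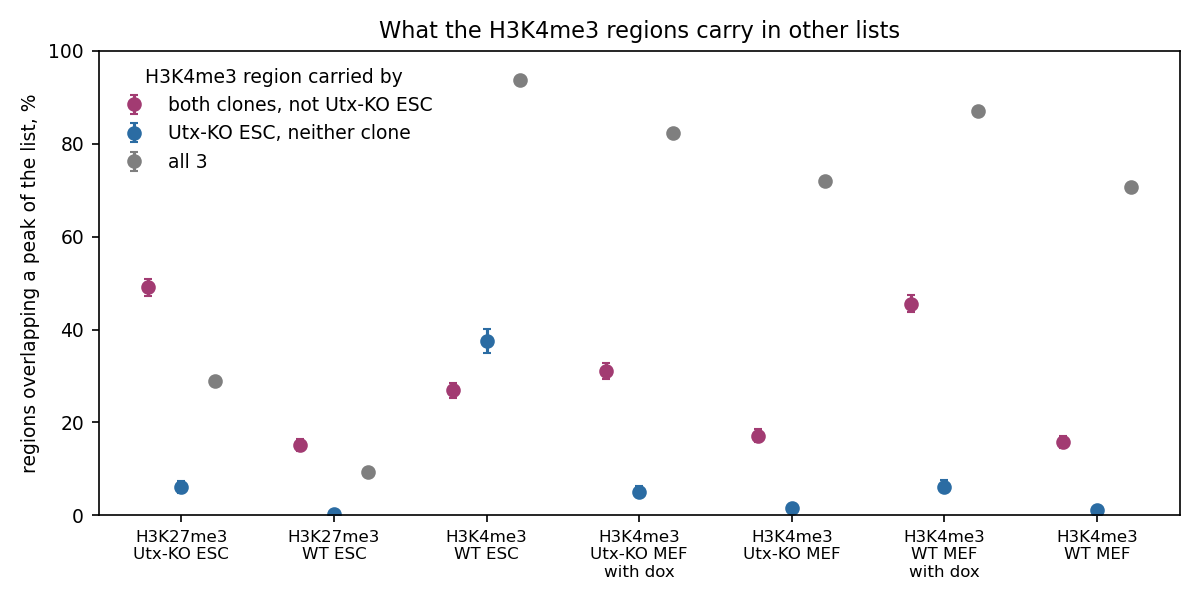
Share of H3K4me3 regions in percent (vertical axis) that overlap a peak of each other list (horizontal axis), for both-clone (purple), ESC-alone (blue) and common regions (grey), with Wilson 95% intervals. Both-clone regions reach 49.1% for Utx-KO ESC H3K27me3, above the 28.9% of common and the 6.06% of ESC-alone regions, and stand below common regions for every H3K4me3 list.

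Among the 10 highest-scoring both-clone regions, 8 overlapped H3K27me3 in Utx-KO ESC, against 49.1% of all 2980. H3K4me3 was found at 9 of them in WT ESC (26.9% of all 2980) and at 9 in a fibroblast list (48.9%). The 10 therefore do not stand for the both-clone regions as a whole. The first was chr7:25247389-25250854, with scores of 2314.54 in clone 1 and 3100 in clone 2, H3K4me3 in every list but Utx-KO ESC, and no H3K27me3 in any list. The second, chr13:51940747-51944479 (1613.55 and 3100), was likewise absent from Utx-KO ESC H3K4me3 alone, but lay under H3K27me3 in Utx-KO ESC and WT ESC. At chr6:43214760-43217069 the scores were 1243.07 and 2250.61. This region had H3K4me3 in all 4 fibroblast lists and not in WT ESC, H3K27me3 in Utx-KO ESC, and the nearest Utx-KO ESC H3K4me3 peak was 358431 bp away. The region chr11:118429876-118432006 (1430.52 and 1458.88) was the only one of the 10 with no fibroblast peak.

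The 10 highest-scoring ESC-alone regions were all marked in WT ESC, against 37.4% of all 1336. Of the 10, 1 carried H3K27me3 in Utx-KO ESC, against 6.06% of all. They were wide, at 2786 to 6460 bp, against a median of 972.5 bp over all ESC-alone regions. The highest was chr3:135210740-135217199, with a score of 2023.73 in Utx-KO ESC and an overlapping UTX peak in WT ESC, but a clone H3K4me3 peak ended or began 217 bp away. At chr8:80589199-80595209 (1602.04) the nearest clone peak was 690 bp away. By contrast chr2:93765563-93770852 (1468.22), with a UTX peak in WT ESC, chr2:120336691-120340152 (1391.36) and chr1:13058912-13062881 (1288.67) had their nearest clone peak 24034, 15770 and 30897 bp away.

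Some of the regions lay close together. The 1 Mb windows with most both-clone regions were chr10:80000001-81000000 and chr7:31000001-32000000, with 18 each, against 2 and 0 ESC-alone regions and 65 and 30 common regions there. In the other direction chr4:146000001-147000000 held 0 both-clone, 10 ESC-alone and 11 common regions. Only 0.647 kb of Utx-KO ESC H3K27me3 lay in that window, against 85.1 and 145 kb in the windows on chromosomes 10 and 7. On chromosomes 6, 8 and 11 together lay 24.7% of both-clone, 16.3% of ESC-alone and 18.9% of common H3K4me3 regions. They held 31.5% of the regions of clone 1 alone, but 17.8% of those of clone 2 alone. Of the regions that a single clone shared with Utx-KO ESC, they held 24.8% for clone 1 and 13.8% for clone 2.

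Seen from the H3K27me3 peaks of Utx-KO ESC, H3K4me3 was found inside them more often in the clones. Of the 36231 peaks, 6563 (18.1%, 17.7 to 18.5) carried H3K4me3 in clone 1, 8620 (23.8%, 23.4 to 24.2) in clone 2 and 5665 (15.6%, 15.3 to 16.0) in Utx-KO ESC. WT ESC, at 15.2%, stood beside Utx-KO ESC. In length, 6.82 Mb of clone 1 and 11.1 Mb of clone 2 H3K4me3 lay inside these peaks, against 6.09 Mb of Utx-KO ESC. These were 19.5%, 20.0% and 14.1% of what each list covered. Utx-KO MEF with dox, at 16.9% of the peaks, 10.1 Mb and 19.2%, also stood above Utx-KO ESC. Over all widths the higher values were therefore not particular to the clones. Among peaks of 2500 bp or more, Utx-KO MEF with dox stood below Utx-KO ESC in every width class, with overlapping Wilson intervals. The shares were 28.7% against 29.7% at 2500 up to 5000 bp and 48.5% against 50.3% at 5000 up to 10000 bp. From 10000 bp upwards they were 55.3% against 62.8%. The Utx-KO MEF with dox list was also shorter, at 16157 H3K4me3 peaks against 20133. WT MEF with dox was not compared at these peaks.

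In percentage points, the difference was widest in the broad domains, where the Utx-KO ESC share was also highest. Relative to the Utx-KO ESC share, the excess of clone 2 was largest in the peaks under 1000 bp. Of the 347 H3K27me3 peaks of at least 10000 bp, 79.5% (74.98 to 83.4) carried H3K4me3 in clone 1 and 84.4% (80.2 to 87.9) in clone 2, against 62.8% (57.6 to 67.7) in Utx-KO ESC. Of the 2035 peaks of 5000 up to 10000 bp the shares were 61.9% and 69.6%, against 50.3%. Of the 6615 peaks under 1000 bp they were 3.17% and 5.94%, against 3.14%, so in clone 1 the smallest peaks showed no excess beyond counting error. With lists of equal length the clones still stood at 76.7% and 80.7% in the broadest class, against 62.8%. Over all widths they then stood at 16.6% and 19.8%, against 15.6%, and for peaks of 1000 up to 2500 bp clone 1 stood at 10.5%, against 10.4%.

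**Figure D5:**
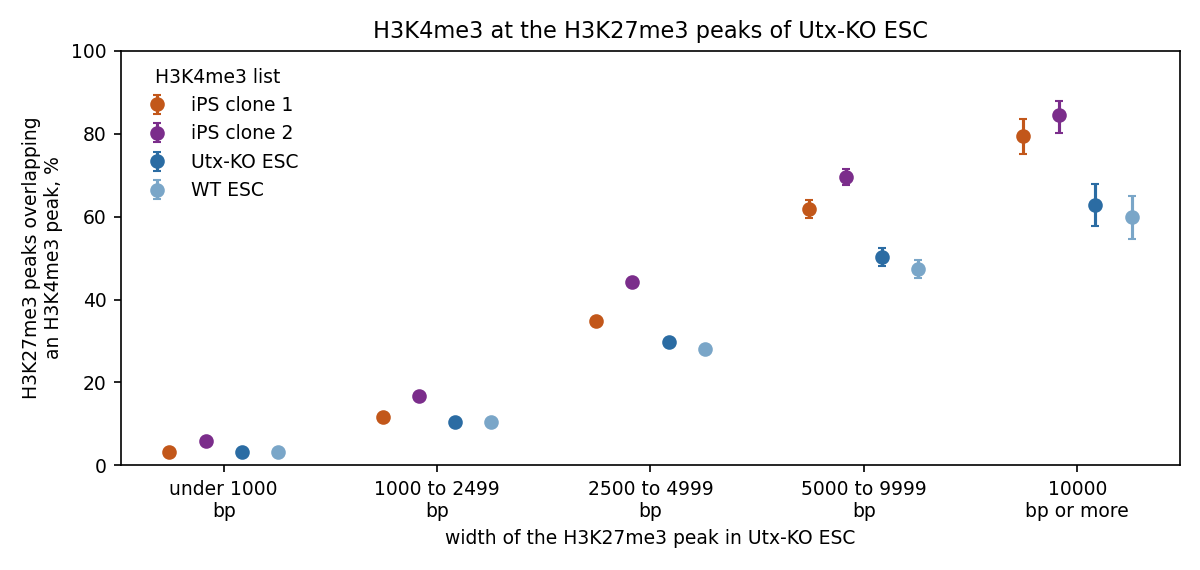
Share of Utx-KO ESC H3K27me3 peaks in percent (vertical axis) that overlap an H3K4me3 peak of iPS clone 1, iPS clone 2, Utx-KO ESC or WT ESC (left to right in each class), by the width of the H3K27me3 peak (horizontal axis), with Wilson 95% intervals. Both clones stand above Utx-KO ESC from 1000 bp upwards, reaching 79.5% and 84.4% against 62.8% at 10000 bp or more.

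H3K4me3 was found in both clones and not in Utx-KO ESC at 1341 of these H3K27me3 peaks (3.7%), and in Utx-KO ESC and neither clone at 105 (0.29%). At equal list length the counts were 940 and 235, in the same direction. In the class of at least 10000 bp they were 58 and 0. For each clone by itself the log2 ratio of the counts was 1.39 in clone 1 and 4.75 in clone 2, again higher for the longer clone list.

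The highest-scoring H3K27me3 peak of this kind was chr2:74581375-74594203, a domain of 12829 bp. Clone 1 had 3 H3K4me3 peaks inside it that covered 3210 bp, clone 2 had 3 that covered 4007 bp, and Utx-KO ESC had none. It also carried H3K4me3 in both MEF states with dox and in neither without it. At chr19:45225676-45235804 clone 1 had 2 peaks over 1495 bp and clone 2 had 4 over 3519 bp. At chr2:158434254-158442858, 1795 bp were covered in clone 1 and 4066 bp in clone 2, and no other cell state of the series had H3K4me3. The same held for chr2:26050992-26063658, where 1121 bp were covered in clone 1 and 1599 bp in clone 2.

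H3K4me3 peaks that carried both marks in Utx-KO ESC, the doubly marked ones, met H3K4me3 in the clones more often than the rest. Such peaks are called kept, which means overlap only, since the clones did not descend from that line. Of 5060 doubly marked peaks, 93.0% (92.3 to 93.7) met H3K4me3 in clone 1 and 98.2% (97.8 to 98.5) in clone 2. Of the 15073 peaks without H3K27me3, 81.0% (80.4 to 81.7) and 91.0% (90.6 to 91.5) did. The differences were 12.0 points (11.02 to 12.9) in clone 1 and 7.18 points (6.58 to 7.75) in clone 2. In neither clone were 1.60% of the doubly marked peaks and 8.33% of the others.

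The difference was also found among peaks of similar score. Utx-KO ESC H3K4me3 peaks were split by score into 5 classes of equal size, and in the highest class 99.9% met clone 1 and 100% met clone 2. In the lowest class, with scores of 111.28 or less, 77.0% of the doubly marked peaks met clone 1 and 93.5% met clone 2, against 35.5% and 64.5% of those without H3K27me3. Doubly marked peaks thus overlapped clone H3K4me3 more often than the others also where they were weak in Utx-KO ESC. H3K27me3 was called at 7 of the 5060 in clone 1 (0.138%) and at 11 in clone 2 (0.217%). Over all 36231 Utx-KO ESC H3K27me3 peaks the shares were as low, at 0.0745% and 0.226%, so these counts follow the short clone lists and say nothing of doubly marked peaks in particular.

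The width of H3K4me3 in shared regions followed the same division. In regions with 1 peak in each list, the median log2 ratio of clone to Utx-KO ESC width was -0.31 in clone 1 (14337 regions) and 0.093 in clone 2 (16951 regions), a mean of -0.11 ± 0.28 (SD, n = 2) with no common direction. Against these shifts, peaks with H3K27me3 in Utx-KO ESC were relatively wider. Their median ratio was -0.14 in clone 1 and 0.28 in clone 2, against -0.36 and 0.039 for peaks without it. Doubly marked peaks are narrower in Utx-KO ESC, so the comparison was repeated within classes of Utx-KO ESC width. Among peaks of 1000 up to 2000 bp the ratio was -0.15 with and -0.37 without H3K27me3 in clone 1, and 0.30 with and 0.14 without it in clone 2, and the order was the same in the other 3 width classes of both clones.

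By covered length, the clones shared more H3K4me3 with ESC than with fibroblasts. As a share of the length covered jointly by 2 lists, clone 1 shared 61.5% with Utx-KO ESC, 59.6% with WT ESC, 60.0% with clone 2, 51.5% with WT MEF with dox, 47.9% with Utx-KO MEF with dox and 45.9% with Utx-KO MEF. Clone 2 shared 63.0% with Utx-KO ESC, 63.5% with WT ESC, 57.3% with WT MEF with dox, 53.2% with Utx-KO MEF with dox and 35.1% with Utx-KO MEF. The 2 ESC lists shared 72.6%. This share is limited where 2 lists differ in covered length. Clone 2 covered 55.5 Mb and Utx-KO MEF 22.3 Mb, against 52.8 Mb in Utx-KO MEF with dox and 43.3 Mb in Utx-KO ESC. By the share of the other list's peaks that a clone met, the order was not the same. Clone 1 met 84.1% of Utx-KO ESC peaks, 87.3% of Utx-KO MEF with dox peaks and 87.5% of WT MEF peaks, and clone 2 met 92.8%, 92.4% and 92.3%. The Utx-KO ESC and Utx-KO MEF H3K4me3 lists had no peak on chromosome Y, where clone 1 had 3 and clone 2 had 6. WT ESC had 3, Utx-KO MEF with dox 2, WT MEF with dox 4 and WT MEF 7. Counts this low show no difference between the lists.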

How the data were processed

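For each immunoprecipitated sample the authors deposited a peak list with a MACS score per peak. Per the submitters' processing notes, reads and peaks on mm9 involved MACS 1.4.1, Bowtie 0.12.5 and CASAVA 1.8.2; the role of each, its settings and the control of each list are not given in the sources used here. Read totals were not used. Of all peaks, 1 on the mitochondrial genome was dropped, and the rest lay on chromosomes 1 to 19, X and Y. All coordinates are 1-based mm9 positions. No mm9 annotation was used here, so regions have no gene names.

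Peaks overlapping by at least 1 bp were merged into regions over the lists compared. Shares have Wilson and log2 ratios exact (Clopper-Pearson) 95% intervals, and differences of shares combine the Wilson bounds. The members, lists and regions described were chosen with earlier results of these data known. Named regions were the 10 per direction and mark with the highest score (the lowest of the carrying lists, ties by width), plus, for H3K27me3, the 5 highest per clone and the 5 highest shared with Utx-KO ESC. Named H3K27me3 domains that carry H3K4me3 in the clones alone, the 1 Mb windows and the 3 chromosomes were chosen after their values were seen. Alternatives were a score of at least 100, 50% overlap of the shorter peak, equal list lengths, joining peaks within 1000 bp, autosomes only and each clone alone. Overlap counts were tested on simulated lists and equalled those of bedtools 2.31.1 in 20 of 20 cases. Python 3.11.15, numpy 2.4.6, scipy 1.17.1 and matplotlib 3.10.9 were used.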

Additional observations from a re-analysis of the deposited data

How the results depend on the processing

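Of 98 alternative values for 12 results, 82 kept their direction and moved by less than the SD between the clones. Where a result is the mean of the 2 clones, leaving out 1 clone cannot move it by more than that SD. Such values count among the 82 by construction unless their sign turns, so they are no measure of stability. With equal numbers of top peaks, the H3K4me3 log2 ratio turned to -0.27, the share of clone H3K4me3 peaks met in Utx-KO ESC was 86.1%, and the H3K27me3 ratio was 0, which equal lists with hardly any overlap give by construction, with 0.845% of Utx-KO ESC H3K27me3 peaks met. Both-clone regions then carried Utx-KO ESC H3K27me3 at 61.7%, 32.3 points above common regions, and Utx-KO MEF H3K4me3 at 22.96%. At a score of at least 100, which leaves clone 1 no H3K27me3 peak, the H3K27me3 ratio was -9.48, and the clones exceeded Utx-KO ESC in H3K4me3 at its H3K27me3 peaks by 10.2 points. The both-clone H3K27me3 share was 41.9% with 50% overlap and 40.8% by the centre alone. With 1 clone at a time the values ran from 0.40 to 2.74 (H3K4me3 ratio), -8.36 to -5.78 (H3K27me3 ratio), 84.1% to 92.8% (Utx-KO ESC H3K4me3 peaks met), 65.7% to 81.9% (clone H3K4me3 peaks met), 0.0745% to 0.226% (H3K27me3 peaks met), 93.0% to 98.2% (doubly marked peaks kept), 32.5% to 41.9% (H3K27me3 share), 10.2% to 14.4% (Utx-KO MEF share), -0.31 to 0.093 (width, which turned positive without clone 1), 1.39 to 4.75 (H3K4me3 at H3K27me3 peaks), 2.48 to 8.16 points and 4.90 to 13.8 points. Where a value moved and its construction does not show why, the cause was not tested. The centre rule, the setting without chromosomes 6, 8 and 11, and the last 3 results were added after seeing the data. No paired analysis was possible because Utx-KO ESC had 1 library per mark, which carries no clone number. Read depth was unknown, so an uncalled peak is not shown to be an absent mark.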
